A study of Mus musculus with 7 samples.

Results

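The genes described here are 27 genes of sterol synthesis and its control, taken as the rows of the deposited expression table whose symbols were on a list of cholesterol-pathway enzymes, of the SREBP2 machinery and of sterol-handling targets. All 27 were among the 12151 genes of the table and passed the filter on low values, which left 12105 genes. Messenger RNA had been sequenced in hepatocytes, the main cells of the liver, isolated from mice. There were 3 wild-type (WT) libraries, whose treatment label is "non", and 4 ALAS1/2-KO libraries, labelled tamoxifen. In the latter group a Cre-dependent allele was to lose exons 4 to 5 of Alas1, the gene of the ubiquitous aminolevulinic acid synthase that opens heme synthesis, and Alas2, its red-cell counterpart, was to be lowered by siRNA carrying GalNAc, a sugar that hepatocytes take up. The series asks about a role of ALAS1 in silencing by small RNAs, apart from heme. Not stated in the labels are the promoter that drove the Cre, whether WT mice received a control siRNA, and the age, sex, feeding and hour of collection of the animals. Allele, tamoxifen and siRNA therefore cannot be told apart. Whether each replicate was its own animal is not stated either, and p-values then measure only a spread among libraries that may be technical. In bulk RNA, fewer cells of a type and less RNA per cell cannot be told apart.

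Cholesterol is built from acetyl-CoA through mevalonate, farnesyl pyrophosphate, squalene and lanosterol. Transcription of nearly every step is driven by SREBP2, a factor made as a membrane protein of the endoplasmic reticulum. SCAP carries SREBP2 to the Golgi, where the proteases encoded by Mbtps1 and Mbtps2 release its active part, and when sterols are plentiful the INSIG proteins hold SCAP back. In liver the pathway follows feeding and the time of day, and its sister factor SREBP1c, the product of Srebf1, drives fatty acid synthesis.

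Levels below are CPM, the reads of a gene scaled to a common library size, recovered from the deposited log2 values. The libraries held 22916097 to 34048680 reads over the listed genes, and the members had between 88 and 20599 reads in a library. Alas2, the siRNA target, stood at 16.9, 10.3 and 6.65 CPM in WT libraries and at 0.333, 0.80, 0.428 and 0.198 CPM in ALAS1/2-KO (limma log2 difference -4.51, SE 0.46, adjusted p = 0.0027). The 5 listed erythroid and platelet markers, headed by the globin gene Hbb-bs, also lay lower, with a sum of 26.3 ± 15.1 CPM in WT libraries and 5.70 ± 2.22 CPM in ALAS1/2-KO, and their part in the Alas2 value was not tested. Alas1 as a whole gene, a measure that does not check the loss of the exons, stood at 279.5, 265 and 83.5 CPM in WT libraries. In ALAS1/2-KO it stood at 287, 332, 307 and 361 CPM. The means were 209 ± 109 and 322 ± 31.7 CPM (SD, n = 3 and 4), with WT replicate 3 far below every other library. The difference did not pass (limma log2 difference 0.80, adjusted p = 0.277). All 12 hepatocyte markers examined were present, and limma called 1 of them, Alb, lower. The summed CPM of 38 listed markers of endothelial, macrophage, stellate, bile duct and lymphoid cells ran from 1599 to 2180 in WT and was 391, 1089, 2267 and 1983 in ALAS1/2-KO replicates 1 to 4; limma called 0 of these higher and 2 lower. Of the 49 such markers fixed, 11 were not listed, among them the bile duct keratins Krt7 and Krt19 and the T cell gene Cd3e. All 38 listed markers had a log2 difference below 0, with a median of -0.92, where 48.0% of all genes tested lay above 0. In the sum, ALAS1/2-KO replicate 1 was the lowest library, and replicate 2 also lay below every WT library. Values without replicate 1 are given where a result turns on it.

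The summed mRNA of the sterol synthesis enzymes overlapped between the groups on the deposited scale, and the sum itself was not tested. The 19 enzymes summed to 1792, 2334 and 2264 CPM in the WT libraries and to 2125, 2461, 1853 and 1931 CPM in the ALAS1/2-KO libraries, or 2130 ± 295 and 2093 ± 271 CPM (SD, n = 3 and 4). The means differed by less than the spread within either group. Of the 27 members, 1 passed the limma test upward (adjusted p under 0.05 over all genes) and 0 passed downward, or 3.7% against 5.1% of all genes tested (2.91% upward and 2.19% downward). The gene that passed was Mvd. At an unadjusted p under 0.05 there were 9 members, 33.3% against 23.7% of all genes, and limma voom on the recovered reads also called Mvd alone. The median log2 difference of the members was 0.07, beside -0.02 for all genes tested, and 18 of 27 lay above 0, or 66.7% against 48.0%. In 7 members the groups did not overlap, 6 with ALAS1/2-KO above WT and 1 below, or 25.9% against 22.7% of all genes in either direction. By direction, 22.2% of members lay above against 11.3% of all genes, and 3.7% below against 11.4%. A single call is too few to set the members apart from all genes, and upward alone the order was reversed (3.7% against 2.91%). The shares above 0 and apart upward were larger than those of all genes, which was not tested.

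**Figure D1:**
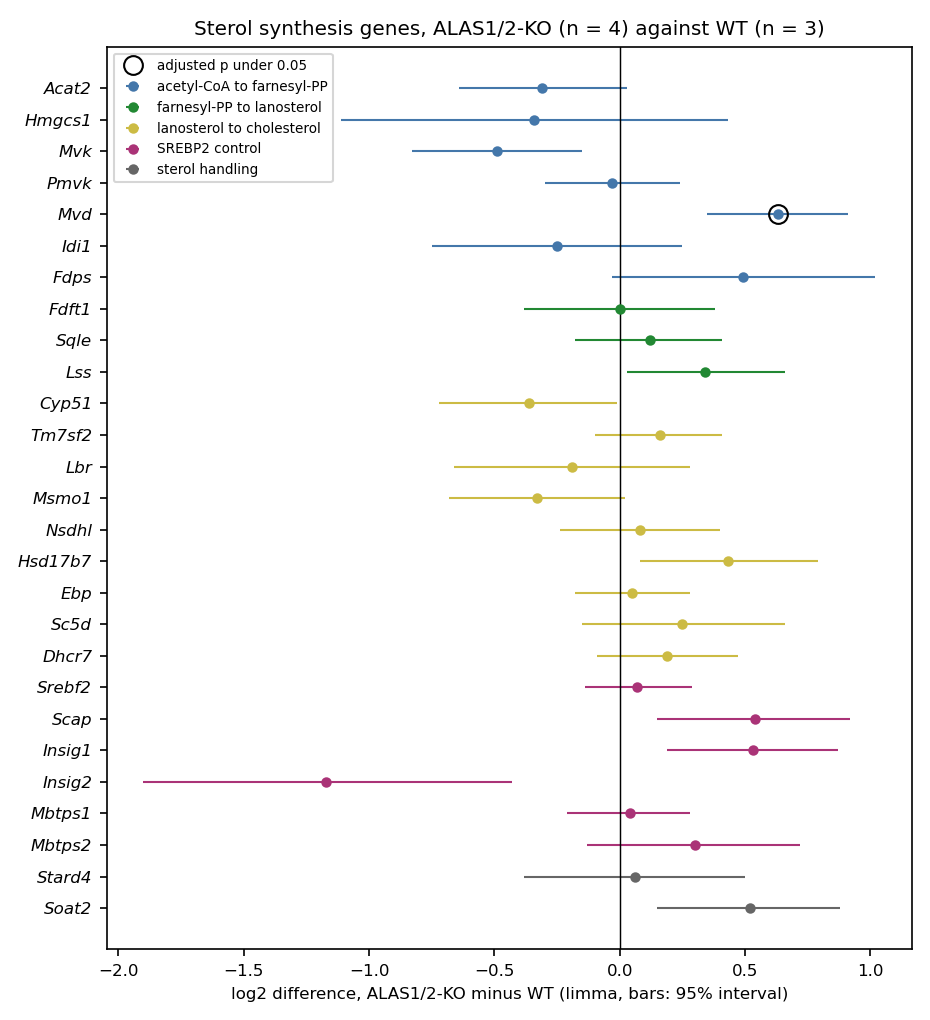
Difference between ALAS1/2-KO and WT for each of the 27 members on the log2 scale (horizontal axis), in pathway order from top to bottom. Points are limma estimates, bars their 95% intervals and the ring marks an adjusted p under 0.05; Mvd alone is ringed, and Insig2, at -1.17, lies farthest from 0.

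The number of members called depended on how the libraries were scaled, though Mvd was called under all 3 other scalings run. The libraries differed in composition, with mitochondrial genes taking 38.4, 43.2 and 31.9% of listed reads in WT and 16.8, 25.3, 27.3 and 25.8% in ALAS1/2-KO. These shares did not overlap between the groups, and their part in the results was not tested. When CPM were rescaled to the reads listed, without the scaling in the deposited values, the median of all genes moved from -0.02 to 0.32 and that of the members from 0.07 to 0.41, so the distance between the medians was 0.09 in both. On that scale 10 members (37.0%) were called higher and 0 lower, where 22.6% of all genes were called and 20.9% were called higher. The 10 were Mvd, Fdps, Lss, Tm7sf2, Hsd17b7, Ebp, Dhcr7, Scap, Insig1 and Soat2, and the log2 differences of Acat2, Pmvk, Idi1, Lbr and Msmo1 changed sign to lie above 0. Changes are therefore to be read relative to the median of all genes.

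The first stage, from acetyl-CoA to farnesyl pyrophosphate, held values on both sides of 0. Mvd, mevalonate diphosphate decarboxylase, which makes isopentenyl pyrophosphate, stood at 10.4, 11.1 and 10.3 CPM in the WT libraries and 19.6, 14.9, 14.9 and 16.7 CPM in ALAS1/2-KO. Every ALAS1/2-KO library lay above every WT library, and replicate 1 was the highest. Mvd rose 1.55-fold (limma log2 difference 0.63, SE 0.12, 95% interval 0.35 to 0.91, adjusted p = 0.029). Without ALAS1/2-KO replicate 1 the log2 difference was 0.55 and the call held (adjusted p = 0.0278). The limma call was lost on leaving out any 1 WT library (adjusted p = 0.0927, 0.123 and 0.0724 for replicates 1 to 3) or replicate 4 of ALAS1/2-KO (0.0718), while the log2 difference was 0.55 to 0.68 over the 7 fits without a library. The call was also lost without a limma trend (adjusted p = 0.0544), and with the score of other cell types as a covariate the log2 difference was 0.48 (adjusted p = 0.0586). Mvd (ENSMUSG00000006517.5) lies on chromosome 8 at 122433601 to 122443422 (mm10, minus strand), and none of its transcripts shares a run of 50 bases with another annotated gene.

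Mvk, mevalonate kinase, which acts 2 steps before Mvd, lay on the other side of 0. It stood at 24.9, 24.6 and 19.6 CPM in WT libraries and 15.2, 20.1, 16.5 and 13.8 CPM in ALAS1/2-KO. WT replicate 3 fell just under ALAS1/2-KO replicate 2, so the groups overlapped. The log2 difference was -0.49 (SE 0.15, 95% interval -0.83 to -0.15) and did not pass after adjustment (limma adjusted p = 0.0998). Pmvk, the kinase between the pair, had a log2 difference of -0.03 (95% interval -0.30 to 0.24) at means of 33.3 and 32.7 CPM. Thus 3 consecutive enzymes of mevalonate had estimates of -0.49, -0.03 and 0.63.

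The steps before mevalonate varied widely between libraries. Hmgcs1, the cytosolic synthase that makes HMG-CoA, stood at 186, 371 and 327 CPM in WT libraries and 275, 326, 177 and 157 CPM in ALAS1/2-KO. Both groups held high and low libraries, and the log2 difference of -0.34 had a 95% interval of -1.11 to 0.43 (limma adjusted p = 0.575). Acat2, the cytosolic thiolase that joins acetyl-CoA units, stood at 28.0, 36.5 and 26.1 CPM in WT libraries and 24.3, 28.6, 21.4 and 23.0 CPM in ALAS1/2-KO. WT replicate 2 was its highest library and the groups overlapped (log2 difference -0.31, limma adjusted p = 0.244). Of the transcript sequence of Acat2, 39.1% in runs of 50 bases is shared, mostly with Acat3, so its value is uncertain.

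After Mvd, Idi1 interconverts the isoprene units and Fdps joins them to farnesyl pyrophosphate. Idi1 had means of 30.1 and 25.8 CPM and a log2 difference of -0.25 (95% interval -0.75 to 0.25). Fdps stood at 5.43, 5.83 and 5.07 CPM in WT libraries and 11.9, 6.43, 6.02 and 7.52 CPM in ALAS1/2-KO. All ALAS1/2-KO libraries were above WT, replicate 1 by far the most, and the difference did not pass (log2 0.49, 95% interval -0.03 to 1.02, limma adjusted p = 0.236). Without ALAS1/2-KO replicate 1 the Fdps log2 difference was 0.28. With the score of other cell types as a covariate it was 0.10 (limma adjusted p = 0.757). Annotated copies and an overlapping gene, Gm43738, share 26.2% of the runs of 50 bases of Fdps and 25.3% of Idi1 is shared in the same way, so both are uncertain.

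The promoter letters of the called gene and of 3 members discussed with it are shown because promoter motifs of the pathway were searched in these windows. They are RefSeq sequences of GRCm38.p6, the assembly of mm10, written 5′ to 3′ on the gene's strand from 250 bases before to 50 after the start. Capitals mark, on either strand, CCAAT (the NF-Y box), GGGCGG (the Sp1 box), TCACNCCAC (a sterol response element) and CACGTG (an E-box).
Mvd promoter, chr8:122443373-122443672, minus strand: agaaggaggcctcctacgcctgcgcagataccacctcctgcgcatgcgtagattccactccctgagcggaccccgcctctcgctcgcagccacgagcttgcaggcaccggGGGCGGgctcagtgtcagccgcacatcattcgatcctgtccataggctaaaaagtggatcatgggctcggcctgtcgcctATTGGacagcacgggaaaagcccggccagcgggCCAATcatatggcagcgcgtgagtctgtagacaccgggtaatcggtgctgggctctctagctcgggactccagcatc
Hmgcs1 promoter, chr13:119690101-119690400, plus strand: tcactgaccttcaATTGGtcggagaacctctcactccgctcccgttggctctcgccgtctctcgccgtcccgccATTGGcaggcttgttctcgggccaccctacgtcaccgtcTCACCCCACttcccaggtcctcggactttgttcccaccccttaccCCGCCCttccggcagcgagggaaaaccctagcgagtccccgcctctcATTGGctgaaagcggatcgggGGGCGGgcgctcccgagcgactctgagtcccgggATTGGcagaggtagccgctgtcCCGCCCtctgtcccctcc
Insig1 promoter, chr5:28071162-28071461, plus strand: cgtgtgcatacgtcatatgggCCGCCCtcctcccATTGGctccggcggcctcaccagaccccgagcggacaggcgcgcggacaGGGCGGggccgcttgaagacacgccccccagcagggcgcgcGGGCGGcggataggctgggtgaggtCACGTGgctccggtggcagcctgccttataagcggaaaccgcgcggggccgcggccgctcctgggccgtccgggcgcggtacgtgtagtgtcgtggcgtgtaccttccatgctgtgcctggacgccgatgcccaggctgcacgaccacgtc
Insig2 promoter, chr1:121332540-121332839, minus strand: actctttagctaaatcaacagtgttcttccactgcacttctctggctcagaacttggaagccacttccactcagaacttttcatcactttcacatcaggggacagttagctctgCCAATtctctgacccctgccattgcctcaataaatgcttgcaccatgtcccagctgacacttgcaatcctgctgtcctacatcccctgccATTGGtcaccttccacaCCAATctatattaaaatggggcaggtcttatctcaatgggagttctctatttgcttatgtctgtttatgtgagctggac
The Mvd window held 2 NF-Y boxes and 1 Sp1 box, with first bases at -60, -27 and -140 from the start. Hmgcs1 was the 1 member of 22 with a RefSeq window whose letters matched the sterol response element, at -137. Such a match was held by 1.5% of the 9437 listed genes with a window and by 1.24% of all 32851 windows of this length. Only these exact letters were searched, so an element with other letters would be missed. The other 5 members, Fdps, Fdft1, Sqle, Stard4 and Soat2, had no window. Across those 22 members, 18 (81.8%) had an NF-Y box and 20 (90.9%) an Sp1 box in at least 1 window. Among the 9437 listed genes with a window, the shares were 43.1% and 67.5%, and over all 32851 windows they were 37.4% and 35.7%. The E-box letters were present in 5 of 22 members, Dhcr7, Hsd17b7, Insig1, Sc5d and Scap, and in 11.9% of listed genes (7.15% of all windows). Of the 3 annotated Insig2 windows, the one shown lies farthest upstream and held 3 NF-Y boxes and no Sp1 box, and the other two held no NF-Y box and 1 Sp1 box each. A match is a description of letters, and binding was not measured.

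In the stage from farnesyl pyrophosphate to lanosterol, 3 enzymes summed to 270 ± 32.8 CPM in WT libraries and 289 ± 31.7 CPM in ALAS1/2-KO libraries (SD, n = 3 and 4), and 0 of 3 passed. Fdft1, squalene synthase, gave means of 147 and 146 CPM and a log2 difference of 0.00 (95% interval -0.38 to 0.38). It overlaps Ctsb, a gene on the opposite strand, and strand handling is not given, so its value is uncertain. Sqle, squalene epoxidase, a known control point of the pathway, was steady in WT at 76.3, 77.7 and 78.4 CPM and ranged from 70.4 to 99.1 CPM in ALAS1/2-KO (log2 difference 0.12, 95% interval -0.18 to 0.41). Lss, which closes the ring to lanosterol, stood at 39.8, 47.9 and 49.0 CPM in WT libraries and 68.0, 61.8, 54.0 and 48.3 CPM in ALAS1/2-KO. Only ALAS1/2-KO replicate 4 fell within the WT range, and the log2 difference was 0.34 (95% interval 0.03 to 0.66, limma adjusted p = 0.183).

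**Figure D2:**
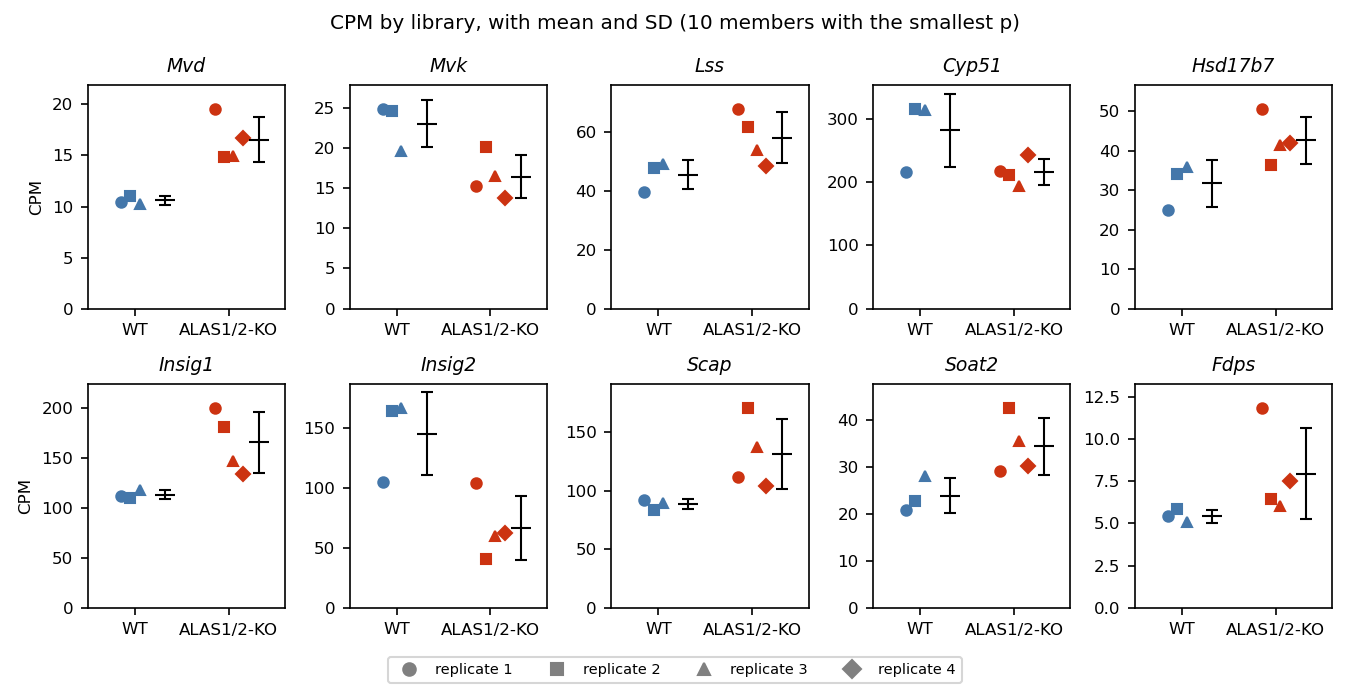
CPM in each library (vertical axis, starting at 0) for the 10 members with the smallest unadjusted p, WT in blue and ALAS1/2-KO in red, with marker shape giving the replicate and black bars the mean and SD. Mvd, Hsd17b7, Insig1, Scap, Soat2 and Fdps have all ALAS1/2-KO points above WT, and Insig2 has WT replicate 1 and ALAS1/2-KO replicate 1 nearly level at 105.5 and 104.6 CPM.

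From lanosterol to cholesterol, 9 enzymes summed to 1433 ± 160.1 CPM in WT libraries and 1446 ± 159 CPM in ALAS1/2-KO, and 0 of 9 passed. The early demethylation enzymes had estimates below 0. Cyp51, the heme enzyme that removes the first methyl group of lanosterol, stood at 215, 316 and 313 CPM in WT libraries and 217, 211, 193 and 242 CPM in ALAS1/2-KO. WT replicates 2 and 3 were above all others and WT replicate 1 lay among the ALAS1/2-KO libraries (log2 difference -0.36, 95% interval -0.72 to -0.01, limma adjusted p = 0.206). Msmo1, the sterol methyl oxidase of the next steps, also had WT replicates 2 and 3 above all others, with 188, 263 and 258 CPM in WT libraries and 197, 207, 156 and 188 CPM in ALAS1/2-KO. Its log2 difference was -0.33 (limma adjusted p = 0.237). Without WT replicate 1 the log2 differences of Cyp51 and Msmo1 were -0.55 and -0.49 and neither passed (limma adjusted p = 0.0808 and 0.136).

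Hsd17b7, the 3-ketosteroid reductase that completes each demethylation, lay on the other side. It stood at 25.1, 34.2 and 36.0 CPM in WT libraries and 50.7, 36.4, 41.5 and 42.0 CPM in ALAS1/2-KO. The groups did not overlap, though ALAS1/2-KO replicate 2 and WT replicate 3 were nearly level. The log2 difference was 0.43 (SE 0.16, 95% interval 0.08 to 0.79, limma adjusted p = 0.148). Nsdhl, the dehydrogenase that acts with Msmo1 and Hsd17b7, had means of 82.7 and 86.7 CPM and a log2 difference of 0.08 (95% interval -0.24 to 0.40).

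None of the reductases and isomerases passed the test. Tm7sf2 and Lbr both encode a sterol C14 reductase, LBR also being a protein of the inner nuclear membrane. Tm7sf2 had means of 78.0 and 87.1 CPM (log2 difference 0.16, 95% interval -0.10 to 0.41). Lbr was at 13.4, 14.5 and 13.8 CPM in WT libraries and spread over 8.86, 10.4, 14.5 and 16.4 CPM in ALAS1/2-KO, lowest in replicates 1 and 2, the libraries lowest in markers of other cell types (log2 difference -0.19, 95% interval -0.66 to 0.28). Their part in the Lbr value was not tested. Ebp, the sterol isomerase, gave 208.6 ± 14.96 and 216 ± 12.9 CPM (log2 difference 0.05, 95% interval -0.18 to 0.28). Dhcr7, the final reductase of the Kandutsch-Russell route, gave 111 ± 7.90 and 127 ± 16.7 CPM (log2 difference 0.19, 95% interval -0.09 to 0.47).

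Sc5d, the C5 desaturase, stood at 335, 414 and 420.0 CPM in WT libraries and 434, 634, 415 and 398 CPM in ALAS1/2-KO. ALAS1/2-KO replicate 2 was far above the other 6 libraries, which overlapped (log2 difference 0.25, 95% interval -0.15 to 0.66, limma adjusted p = 0.424). Per kb of annotated exon, Ebp (90.3 CPM per kb), Sc5d (80.0), Hmgcs1 (64.1) and Cyp51 (63.7) were the most abundant members in WT, and Fdps (1.29) and Mbtps2 (0.543) the least. Hmgcs1 and Cyp51, neighbours in that order, did not differ beyond their spread. The places of Hmgcs1, Fdps and Mbtps2 are uncertain, since 11.6, 26.2 and 28.9% of their runs of 50 bases are shared with other genes.

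The SREBP2 machinery held the member with the largest difference, Insig2, and its 6 genes lay on both sides of 0, with 0 passing the test in either direction. Srebf2, the gene of SREBP2, was level at 36.4, 42.6 and 43.1 CPM in WT libraries and 43.5, 41.8, 43.9 and 41.9 CPM in ALAS1/2-KO (log2 difference 0.07, 95% interval -0.14 to 0.29). Mbtps1, the site-1 protease, had means of 43.2 and 44.5 CPM (log2 difference 0.04), and Mbtps2, the site-2 protease, 5.49 and 6.77 CPM (log2 difference 0.30, 95% interval -0.13 to 0.72), with 28.9% of its runs of 50 bases shared, mostly with Yy2, which overlaps it. Scap stood at 92.2, 83.8 and 89.5 CPM in WT libraries and 112, 171, 137 and 104 CPM in ALAS1/2-KO. All ALAS1/2-KO libraries were above WT, by most in replicate 2, and the difference did not pass (log2 0.54, SE 0.17, 95% interval 0.15 to 0.92, limma adjusted p = 0.109). Exons of Scap overlap an antisense gene, 5830462I19Rik, and strand handling is not known, so its value is uncertain. Shorter exon overlaps with other genes were also annotated for Hmgcs1, Lss, Cyp51, Tm7sf2 and Lbr. Of the runs of 50 bases of Hmgcs1, 11.6% are shared, among others with Gm48342 on the opposite strand, so its value is uncertain too.

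Insig1 and Insig2 encode a pair of retention proteins with the same known task, and Insig1 is itself a classical SREBP target. Insig1 (ENSMUSG00000045294.11, chromosome 5, 28071363 to 28078662, plus strand) stood at 112, 109.6 and 118 CPM in WT libraries and 199.9, 181, 147 and 134 CPM in ALAS1/2-KO. The groups were apart, with the WT libraries close together and the ALAS1/2-KO libraries spread. The log2 difference was 0.53 (SE 0.15, 95% interval 0.19 to 0.87) and missed the threshold (limma adjusted p = 0.082). With the score of other cell types as a covariate it was 0.32 (limma adjusted p = 0.203), and with array weights 0.43 (limma adjusted p = 0.032).

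Insig2 (ENSMUSG00000003721.14, chromosome 1, 121304353 to 121332589, minus strand) showed the opposite order. It stood at 105.5, 164 and 167 CPM in WT libraries and 104.6, 41.1, 59.7 and 62.9 CPM in ALAS1/2-KO. The groups were separate by 0.92 CPM between WT replicate 1 and ALAS1/2-KO replicate 1, less than the counting error of that gap (Poisson SE 2.94 CPM), and the other libraries were well apart. The log2 difference, -1.17 (SE 0.31, 95% interval -1.90 to -0.43), was the largest in size among the members and missed the threshold (limma adjusted p = 0.0827). Without ALAS1/2-KO replicate 1, the library poorest in other cell types, it was -1.41 and passed (limma adjusted p = 0.011). It also passed with the score of other cell types as a covariate (-1.51, adjusted p = 0.0386) and with array weights (-1.29, adjusted p = 0.0075), and did not without any of the other 6 libraries (0.104 to 0.273). No transcript of Insig2 shares a run of 50 bases with another annotated gene.

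Of the sterol-handling genes, Soat2, the acyltransferase that makes cholesteryl esters in hepatocytes, stood at 20.7, 22.8 and 28.1 CPM in WT libraries and 29.2, 42.5, 35.4 and 30.2 CPM in ALAS1/2-KO. All ALAS1/2-KO libraries were above WT, the nearest by little, and the difference did not pass (log2 0.52, SE 0.16, 95% interval 0.15 to 0.88, limma adjusted p = 0.104). Stard4, a cytosolic sterol carrier and SREBP target, ranged from 49.5 to 68.9 CPM in WT libraries and from 54.3 to 87.8 CPM in ALAS1/2-KO, highest in replicate 1 (log2 difference 0.06, 95% interval -0.38 to 0.50).

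**Figure D3:**
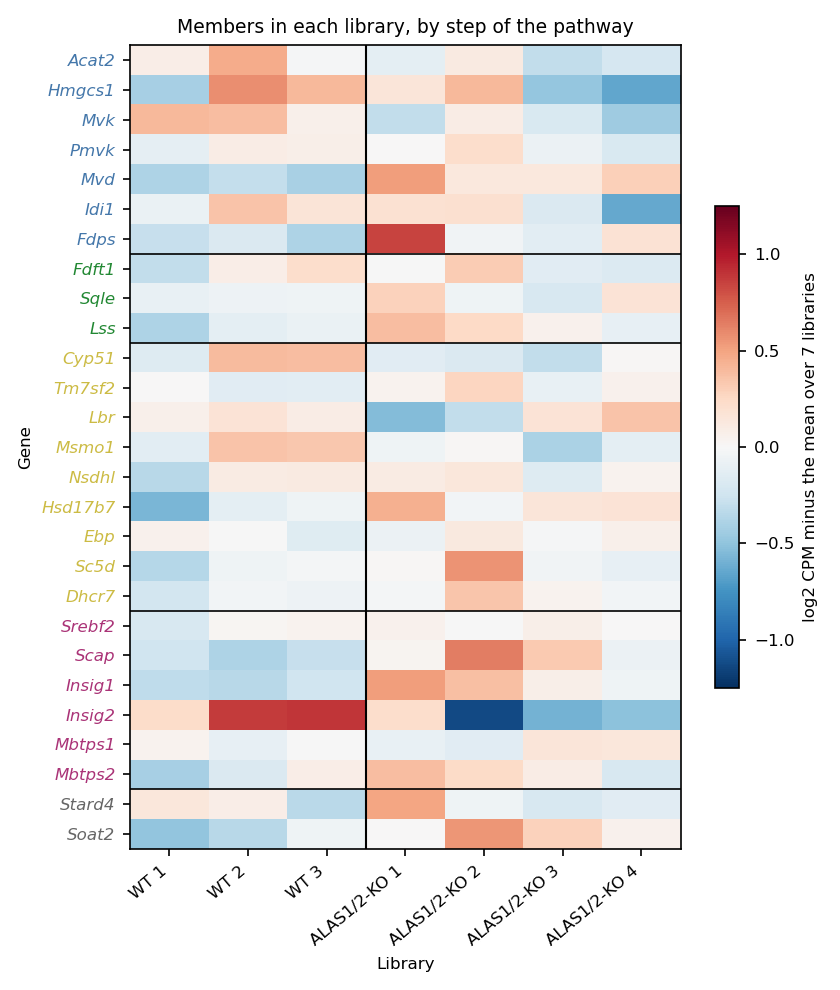
Each member (rows, in pathway order, label colour giving the stage) in each of the 7 libraries (columns), as log2 CPM minus its mean over all 7; red is above and blue below that mean. WT replicate 1 and ALAS1/2-KO replicate 3 each lie below the mean in 14 of 19 enzymes and ALAS1/2-KO replicate 2 in 5. Insig1 is lower in every WT library than in any ALAS1/2-KO library, and Insig2 higher.

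Much of the spread of the enzymes lay between libraries of the same group. Within WT, replicate 1 was the lowest library for 13 of 19 enzymes, or 68.4%, where it was lowest for 33.5% of all genes tested. Replicate 2 was the highest WT library for 10 of 19 (52.6% against 28.5%). Within ALAS1/2-KO, replicate 2 was the highest for 12 of 19 enzymes (63.2% against 27.9% of all genes), and replicate 3 for 0 of 19 (against 22.2% of all genes). The mevalonate stage, whose sum was mostly Hmgcs1, stood at 310.1, 518 and 453 CPM in WT libraries and 409, 465.6, 291 and 264 CPM in ALAS1/2-KO. Mvd did not follow that order, with replicates 2 and 3 of ALAS1/2-KO nearly level at its low end, and neither did Insig2. The median SD of the enzymes' log2 values within a group, 0.18 in WT and 0.20 in ALAS1/2-KO, was close to that of all genes (0.18 and 0.21).

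Related gene lists were set beside the members. Of 22 genes of the mevalonate side branches (prenylation, dolichol and ubiquinone), limma called 0 (4 at an unadjusted p under 0.05, median log2 difference 0.01), with Rabggtb at 33.4 and 31.2 CPM and Nus1 at 31.99 and 28.9 CPM the most abundant. Of 16 genes of sterol-regulated protein degradation it called 0 (0 at an unadjusted p under 0.05, median 0.01), with Aup1 at 118 and 118 CPM. Of 23 genes of sterol uptake and transport it called 0 (5 at an unadjusted p under 0.05, median 0.04), the most abundant being Scp2 at 763 and 967 CPM and Pgrmc1 at 799.5 and 662 CPM. Limma voom on recovered reads likewise called 0 genes of these 3 lists.

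Among 13 LXR targets and sterol exporters, 3 were higher and 0 lower (median 0.11). Abcg5 and Abcg8 form the exporter that sends sterols into bile. Abcg8 stood at 59.7, 61.3 and 61.9 CPM in WT libraries and 82.2, 85.0, 94.8 and 80.5 CPM in ALAS1/2-KO (log2 difference 0.49, limma adjusted p = 0.0281), and Abcg5 at 72.5 ± 1.66 and 106 ± 12.5 CPM (0.54, adjusted p = 0.0344). Lpcat3, a phospholipid acyltransferase, stood at 61.1 ± 15.5 and 109 ± 11.2 CPM (0.86, adjusted p = 0.029). Without single libraries, Abcg8 and Abcg5 passed in 1 of 7 fits each and Lpcat3 in 2 of 7.

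The fatty acid synthesis list differed most from these. There 11 of 18 tested genes were higher and 0 lower, with a median log2 difference of 0.75 beside 0.07 for the sterol genes; this list was drawn up with earlier results of these data known and the difference between the lists was not tested. Its summed level was 3016, 2790 and 2937 CPM in WT libraries and 7230, 8276, 7902 and 7736 CPM in ALAS1/2-KO. Without Scd1, its most abundant gene in ALAS1/2-KO, the sum was 2665, 2496 and 2312 CPM in WT libraries against 4134, 3817, 4408 and 4378 CPM, still without overlap. The mitochondrial shares given above separated the groups in the same libraries. Elovl6, an elongase, rose 2.94-fold, Acly, which makes cytosolic acetyl-CoA for both pathways, 2.44-fold, and Fads2 2.16-fold, each called in all 7 fits without a library, as was Scd1, a desaturase, at 423 ± 177 and 3602 ± 595 CPM. Srebf1, named here as the sister of Srebf2 after its values were seen, stood at 94.4, 89.1 and 83.8 CPM in WT libraries and 100.3, 193, 189.7 and 121 CPM in ALAS1/2-KO. It missed the threshold (log2 difference 0.71, limma adjusted p = 0.126).

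**Figure D4:**
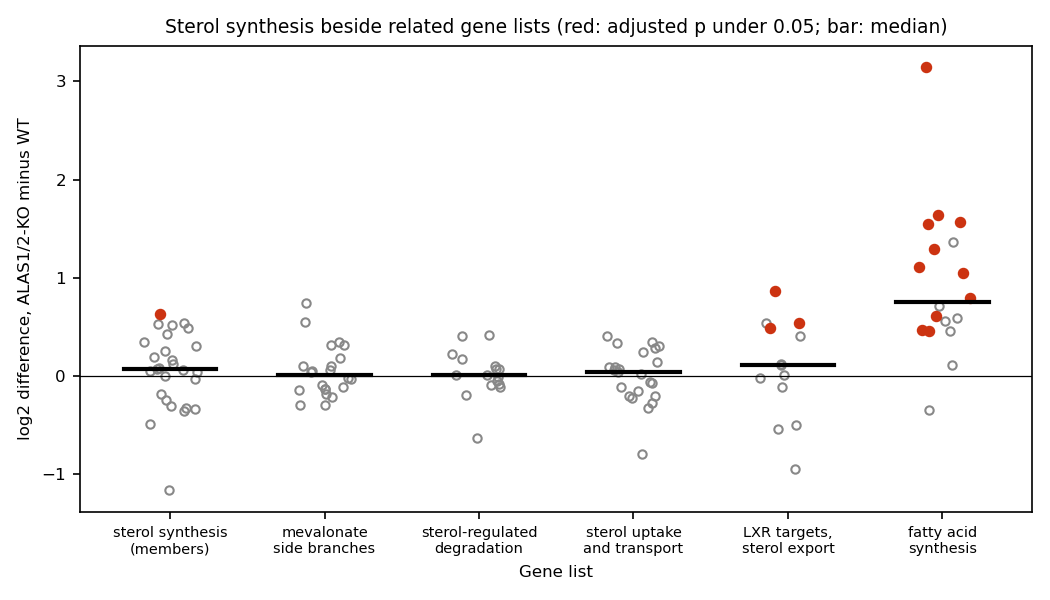
Log2 difference between ALAS1/2-KO and WT (vertical axis) for the genes of the sterol synthesis list and of 5 related lists (columns), with red points for an adjusted p under 0.05 and a black bar for the list's median. The sterol list has 1 red point, the LXR list 3 and the fatty acid list 11.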

How the data were processed

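RNA from isolated mouse hepatocytes was made into libraries with the TruSeq RNA kit from 1 µg of total RNA, per the labels' protocols. Cutadapt, HISAT2 and the build mm10 are named in the submitters' processing notes. The read counter, its annotation and its use of strand were not given in the sources used here. The authors deposited log2 values, in a table named as CPM, for 12151 gene symbols in 7 columns, matched to samples by group and replicate number. Taken off the log2 scale, less a common floor of 0.0676 CPM, 100% of values were whole multiples of a library's step within 0.01 reads, which gave reads and depth. One read was worth 0.0293 to 0.0522 CPM.

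A gene was tested if 3 or more libraries reached 1 CPM. Limma 3.58.1 (R 4.3.3) was run on the deposited log2 values with trend and robust moderation, two-sided, with Benjamini-Hochberg adjustment over 12105 genes. Since the log2 values include that floor, fold changes of scarce genes are understated. The procedure was tested on simulated data. Positions and exon lengths came from GENCODE M21 (mm10). Every member is named, with values in every library for those of smallest p, and from each other list up to 4 called genes or the 2 most abundant, of which 1 is not reported here. Alternatives were other log offsets, filters, scalings, limma settings, voom on recovered reads, a marker score as covariate, a replicate block and leaving out libraries. Leaving out ALAS1/2-KO replicates 1 and 2 together was added after seeing the data. The members, lists and tests were chosen with earlier results of these data known.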

Additional observations from a re-analysis of the deposited data

Results flagged for a closer look

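Sc5d, the C5 desaturase, had 1 ALAS1/2-KO library far from the other 3, replicate 2 at 634 CPM against 398 to 434 CPM, a gap of 0.848 of the group's range. This was 1 of 27 members examined in that group of 4, and chance gives about 1 in 20.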

How the results depend on the processing

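The number of all genes called, 617 in the design as reported, was 2739 with CPM rescaled to listed reads, 2001 with array weights, 306 without a limma trend, 1113 without ALAS1/2-KO replicates 1 and 2 together, and 56 to 802 without single libraries. Members called higher, 1 as reported, were 10 on rescaled CPM, 4 with array weights (Mvd, Scap, Insig1 and Soat2), 0 without a trend or with the marker score as covariate, and 0 to 1 without single libraries. Members called lower, 0 as reported, were 3 with array weights (Acat2, Mvk and Insig2), 1 with the marker score (Insig2), 2 without ALAS1/2-KO replicates 1 and 2 (Mvk and Insig2), and 0 to 1 without single libraries. Equal replicate numbers showed no clear pairing: their deviations correlated at -0.03, 0.05 and 0.18, and not every WT library correlated best with its own number. With 3 and 4 libraries these values cannot settle whether equal numbers shared a batch. With the replicate block 72 genes and 0 members were called, and Mvd had a limma log2 difference of 0.62 (adjusted p = 0.134). The distance of the members' median from that of all genes was 0.02 to 0.15 in all 21 alternatives. Of 567 values of members under alternatives, 505 kept their sign and their side of the threshold.

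Log2 differences that changed sign were uncalled in every such fit. On rescaled CPM they were Acat2 0.03, Pmvk 0.30, Idi1 0.08, Lbr 0.14, Msmo1 0.01, Rabggtb 0.23, Nus1 0.19, Aup1 0.32 and Pgrmc1 0.06. Scaled without the most abundant genes they were Fdft1 -0.06, Ebp -0.01, Mbtps1 -0.03 and Stard4 -0.00, and with quantile normalization Fdft1 -0.08 and Ebp -0.06. With array weights they were Fdft1 -0.09, Nsdhl -0.03, Stard4 -0.14 and Aup1 0.02. With the marker score they were Fdft1 -0.05, Sqle -0.03, Lbr 0.14, Stard4 -0.27 and Aup1 0.02, and with the replicate block Pmvk 0.03 and Mbtps1 -0.00. Without ALAS1/2-KO replicates 1 and 2 they were Fdft1 -0.16, Lbr 0.15, Nsdhl -0.01, Stard4 -0.14 and Aup1 0.04. Over the fits without a single library the log2 differences ran as follows: Pmvk -0.11 to 0.03, Fdft1 -0.15 to 0.11, Nsdhl -0.07 to 0.15, Ebp -0.01 to 0.10, Srebf2 -0.00 to 0.12, Mbtps1 -0.01 to 0.09, Stard4 -0.10 to 0.15 and Aup1 -0.06 to 0.02. The cause of these shifts was not tested. With 3 and 4 libraries, the spread between libraries as well as the size of a difference set what was called: Insig2 at -1.17 missed the threshold and Mvd at 0.63 passed it.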

Other observations

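A ratio of 2 genes within a library does not depend on library scaling. Per kb of exon, the ratio of Insig1 to Insig2, chosen after the values were seen, was 1.19, 0.75 and 0.79 in WT. It was 2.15, 4.94, 2.76 and 2.39 in ALAS1/2-KO. Every ALAS1/2-KO library was above WT for Insig1 and below it for Insig2, so this ratio could not overlap between the groups. Its separation adds nothing to the values of the 2 genes. The ratio of Mvd to Mvk, chosen in the same way, was 0.60, 0.65 and 0.75 in WT and 1.85, 1.07, 1.30 and 1.74 in ALAS1/2-KO. Of the other ratios computed, that of Scap to Insig2 was 0.41, 0.24 and 0.25 in WT and 0.50, 1.94, 1.07 and 0.77 in ALAS1/2-KO. Its lack of overlap was likewise fixed by Scap lying above WT and Insig2 below. That of Soat2 to Stard4 was 0.76, 0.87 and 1.43 in WT and 0.84, 1.79, 1.65 and 1.34 in ALAS1/2-KO, and the groups overlapped. None of these 4 ratios was tested, since the genes were picked from members whose values had been seen.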
